A study of Homo sapiens with 12 samples.

Results

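The 10 lysine demethylases KDM2A, KDM2B, KDM3A, KDM3B, KDM4A, KDM4B, KDM4C, KDM5A, KDM5B and KDM6B were taken by gene symbol from the 58302 genes of the deposited expression files, in order to examine whether the increase of KDM2A after NUF2 knockdown was shared by its family. RNA was sequenced from 12 libraries of 2 human renal cancer cell lines, 769-P and ACHN, both labelled as clear cell renal cell carcinoma (ccRCC). Each line was transfected with siRNA against NUF2 (siNUF2, a mixture of siRNAs) or with control siRNA (siControl) for 48 h, with 3 replicates in each of the 4 groups. Each line is a single established line, and NUF2, a subunit of the NDC80 complex that links kinetochores to spindle microtubules, was depleted transiently by siRNA, with no gene deleted. The values are FPKM, read fragments scaled to the exon length of the gene and the size of the library, and between 28687063 and 38077685 reads per library were recovered from them.

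NUF2 itself followed the labels. The 769-P libraries held 4.20, 3.85 and 3.02 FPKM of NUF2 under siNUF2 and 19.5, 17.7 and 17.7 FPKM under siControl. The ACHN libraries held 2.19, 5.14 and 4.28 FPKM under siNUF2 and 11.4, 14.97 and 14.7 FPKM under siControl. The groups did not overlap in either line, and the mean left after knockdown was 20.2% of the control for 769-P and 28.2% for ACHN cells. PAX8, PAX2, VIM, KRT8, KRT18 and EPCAM had means above 0.5 FPKM in all 4 groups, whereas the group means of CA9, a marker of ccRCC, and of the proximal tubule receptors CUBN and LRP2 were below it in both lines. Immune and endothelial markers were at or near 0, with summed levels of at most 0.412 FPKM and 0.0877 FPKM per library, and of the 6 fibroblast markers COL1A1 alone had a mean above 0.5 FPKM, in ACHN cells only.

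All 10 genes encode Jumonji C enzymes, which use iron, oxygen and alpha-ketoglutarate to remove methyl groups from lysines of histone tails. KDM2A and KDM2B act on mono- and dimethylated H3K36 and carry a CXXC zinc finger that binds unmethylated CpG, and KDM2B brings the PRC1.1 Polycomb complex to CpG islands. KDM3A and KDM3B remove mono- and dimethyl H3K9, the KDM4 enzymes remove trimethyl marks from H3K9 and H3K36, the KDM5 enzymes remove methyl marks from H3K4, and KDM6B removes them from H3K27. In renal cancers with VHL loss the hypoxia pathway is active, and KDM3A and KDM4B are among its known targets.

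KDM2A (ENSG00000173120) lies on the plus strand at chr11:67119269-67258087 and KDM2B (ENSG00000089094) on the minus strand at chr12:121429097-121581015 of GRCh38, in GENCODE release 29. RefSeq lists transcription starts for all 10 genes, and the 250 bases before a start were read for 16 starts on GRCh38.p14. The windows of KDM2A and KDM2B are printed for the starts after which the sequence also occurs in a GENCODE transcript of the gene. These 2 genes were chosen since they moved together and their proteins bind CpG. They are given 5′ to 3′ on the strand of the gene, with each CpG in capitals.
KDM2A start 1, chr11:67119013-67119262: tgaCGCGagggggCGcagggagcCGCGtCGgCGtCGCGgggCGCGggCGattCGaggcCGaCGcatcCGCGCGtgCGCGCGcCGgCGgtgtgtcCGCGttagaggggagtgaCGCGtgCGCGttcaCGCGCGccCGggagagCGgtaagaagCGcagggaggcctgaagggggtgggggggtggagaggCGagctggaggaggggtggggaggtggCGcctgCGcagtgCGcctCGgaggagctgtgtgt
KDM2B start 1, chr12:121581024-121581273: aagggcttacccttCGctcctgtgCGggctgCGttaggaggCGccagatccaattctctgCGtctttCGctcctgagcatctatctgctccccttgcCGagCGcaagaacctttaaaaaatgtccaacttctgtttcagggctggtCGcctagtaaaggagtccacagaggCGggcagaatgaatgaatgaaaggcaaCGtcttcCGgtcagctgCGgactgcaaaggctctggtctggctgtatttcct
KDM2B start 2, chr12:121580247-121580496: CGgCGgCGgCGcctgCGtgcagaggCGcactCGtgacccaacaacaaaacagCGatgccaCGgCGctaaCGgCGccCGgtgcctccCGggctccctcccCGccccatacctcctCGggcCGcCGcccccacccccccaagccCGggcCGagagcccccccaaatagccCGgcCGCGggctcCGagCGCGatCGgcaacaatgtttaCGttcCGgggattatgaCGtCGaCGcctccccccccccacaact
KDM2B start 4, chr12:121467379-121467628: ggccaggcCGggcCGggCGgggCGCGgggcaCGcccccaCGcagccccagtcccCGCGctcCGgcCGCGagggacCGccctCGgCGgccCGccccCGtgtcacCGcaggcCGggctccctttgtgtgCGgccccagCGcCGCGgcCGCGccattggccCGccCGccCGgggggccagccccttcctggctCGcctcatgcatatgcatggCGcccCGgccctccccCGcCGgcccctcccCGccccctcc
The first KDM2A window held 40 CpG, a number reached by 2.16% of the 35097 RefSeq windows of this length, whose median was 11. The KDM2B windows held 13, 32 and 34 CpG in the order printed, reached by 46.6%, 9.52% and 6.84% of all windows. The windows not printed, those of KDM2A start 2 and KDM2B start 3, held 9 and 11 CpG. The windows of the other 8 genes held between 1 and 36 CpG. Any link of the CpG number to the change after knockdown was not tested.

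The KDM2 pair had higher levels after NUF2 knockdown in both cell lines. Both genes were called in 769-P cells, but together in ACHN cells only with the replicate number fitted as a block. None of the other 8 demethylases was called higher in both lines, with or without the block. In 769-P cells KDM2A was at 9.92, 11.2 and 11.3 FPKM under siNUF2 and at 6.72, 7.24 and 6.30 FPKM under siControl (10.8 ± 0.773 against 6.75 ± 0.470, SD, n = 3). Every siNUF2 library was above every control. KDM2A rose by 0.67 on the log2 scale (SE 0.089, 95% interval 0.46 to 0.88), with an adjusted p of 0.00995 (limma with Benjamini-Hochberg adjustment over 14160 genes). All log2 changes were fitted on log2(FPKM + 0.1) after scaling within each line, which understates the change of low genes. Of all genes tested, 3.96% had a larger log2 change.

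KDM2B, the closest relative of KDM2A, was at a lower level in 769-P cells. Its values were 1.89, 1.79 and 1.74 FPKM under siNUF2 and 1.08, 1.152 and 0.896 FPKM under siControl, again without overlap. KDM2B rose by 0.74 on the log2 scale (SE 0.137, 95% interval 0.42 to 1.07), with an adjusted p of 0.0218 by limma. This call was less firm than that of KDM2A. Leaving out siNUF2 replicate 1, 2 or 3 gave adjusted p of 0.0655, 0.0643 and 0.0718 for KDM2B by limma, leaving out siControl replicate 2 or 3 gave 0.0530 and 0.0607, and leaving out siControl replicate 1 gave 0.0401. KDM2A stayed called in 6 of 6 such fits. The log2 change of KDM2B ran from 0.65 to 0.81 in them, while the calls over all genes fell from 1420 to between 365 and 1144. With all 769-P libraries, KDM2B had an adjusted p of 0.0117 by limma with the replicate number as a block. By limma-voom on the recovered reads it was 0.00414. The reads behind KDM2B numbered from 397 to 2534 per library over both lines, against 1690 to 3607 for KDM2A.

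In 769-P cells 2 of the 10 demethylases were therefore called higher and 0 lower, where 5.29% of all genes tested were called higher and 4.74% lower. At an unadjusted p under 0.05, 3 members passed, with KDM3B added, beside 3891 of all 14160 genes tested. The labels number the replicates but do not say that same-numbered libraries are pairs. A pairing was inferred from these data, in which same-numbered 769-P libraries correlated with r of 0.19 to 0.355. With the number as a block 3 members rose (KDM2A, KDM2B and KDM6B) and 1 fell (KDM3B), beside 13.6% and 14.0% of all genes. The p-values measure the spread between these libraries, and since nothing says that they came from separate cultures, that spread may be technical. In bulk RNA, fewer cells with a transcript and less of it per cell cannot be told apart.

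**Figure D1:**
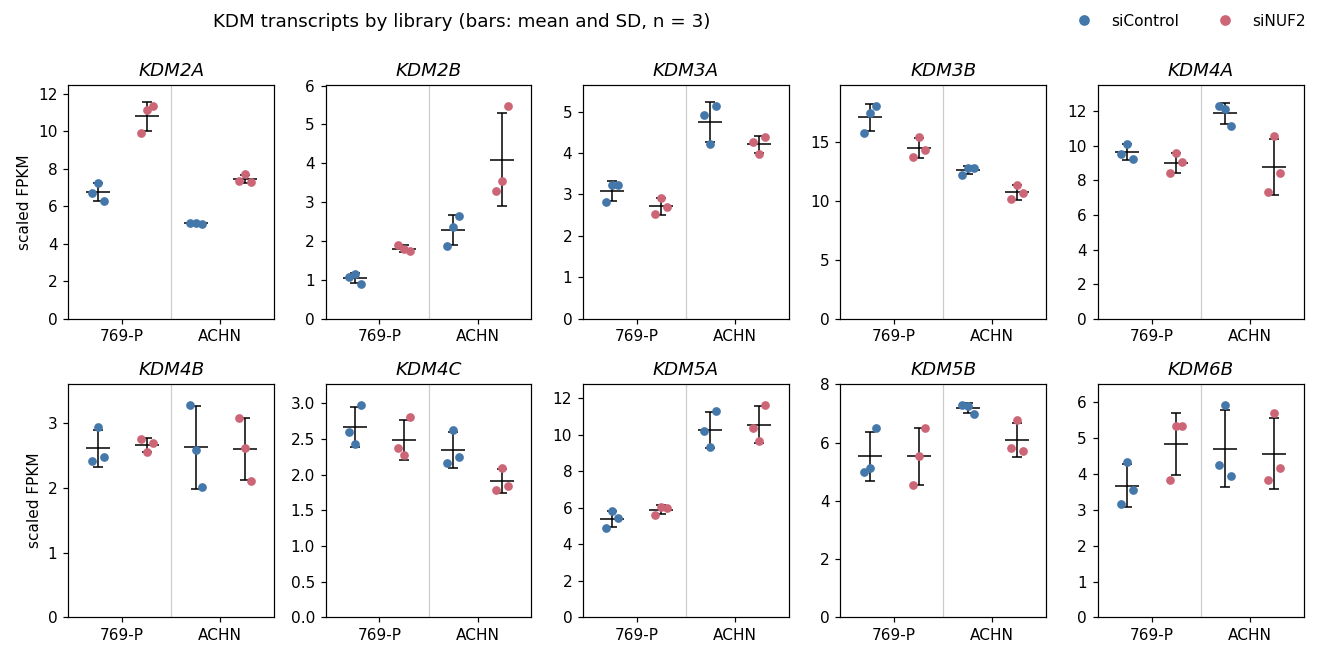
Scaled FPKM of the 10 demethylases (y axis of each panel, from 0) in every library of 769-P and ACHN cells, with siControl in blue and siNUF2 in red, and bars for the mean and SD of 3 libraries. For KDM2A and KDM2B all siNUF2 points lie above all control points in both lines, and for KDM3B all lie below.

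In ACHN cells KDM2A was at 7.35, 7.72 and 7.31 FPKM under siNUF2 and at 5.14, 5.10 and 5.07 FPKM under siControl. The control libraries were almost level and every siNUF2 library was above them. The log2 change was 0.54 (SE 0.085, 95% interval 0.33 to 0.74), a ratio of means of 1.46. KDM2B was at 3.28, 3.55 and 5.47 FPKM under siNUF2 and at 1.86, 2.35 and 2.64 FPKM under siControl. These groups did not overlap either, although siNUF2 replicate 3 stood above the other two. The log2 change of KDM2B was 0.79 (SE 0.232, 95% interval 0.23 to 1.36), and 0.57 without siNUF2 replicate 3.

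Without the block no gene passed in ACHN cells fitted alone by limma. The study used DESeq2 and placed KDM2A among the genes changed in both lines. It also reported more KDM2A protein after knockdown in both. The adjusted p by limma was 0.192 for KDM2A and 0.445 for KDM2B, and 0 of the 10 members were called, beside 0 of 15116 genes (0.0% higher and 0.0% lower). At an unadjusted p under 0.05, 1238 genes passed, 4 of them members (KDM2A, KDM2B, KDM3B and KDM4A), and limma-voom on the recovered reads also called 0. Same-numbered ACHN libraries deviated together, and with the replicate block KDM2A rose with an adjusted p of 0.0134 and KDM2B with 0.0194, while KDM3B fell with 0.0461 (limma). That made 2 members higher and 1 lower, where 7.14% and 5.05% of all genes were called. In a fit of all 12 libraries without the block, KDM2A was the 1 member called in each line, beside 2.66% of 16570 genes higher and 1.67% lower for 769-P, and 0.797% and 0.199% for ACHN. Each of the 3 same-numbered pairs had more KDM2A under siNUF2, by 0.51, 0.59 and 0.52 on the log2 scale, and more KDM2B, by 0.78, 0.57 and 1.02.

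KDM2A and KDM2B were thus called higher in both lines with the block, as were 5.26% of the 12933 genes tested in both, and KDM3B was called lower in both, as were 3.31%. The size of the KDM2 change did not differ detectably between the lines. The ACHN change minus the 769-P change was -0.14 for KDM2A (95% interval -0.40 to 0.11) and 0.04 for KDM2B (95% interval -0.57 to 0.64).

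**Figure D2:**
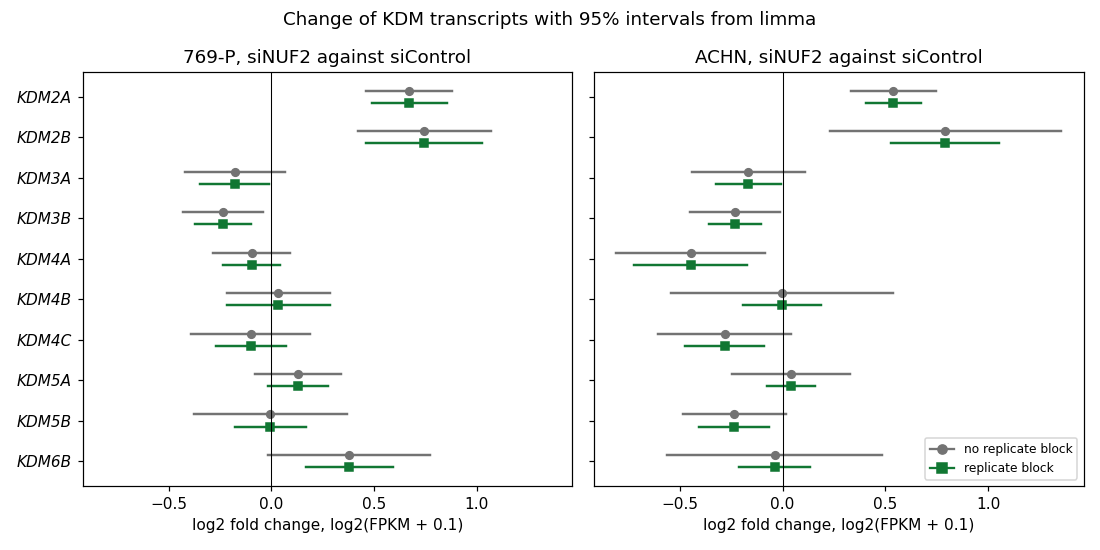
Log2 fold change of siNUF2 against siControl on log2(FPKM + 0.1) (x axis) for each demethylase, in 769-P (left) and ACHN cells (right), with 95% intervals from limma without (grey circles) and with (green squares) the replicate block. In both panels the intervals of KDM2A and KDM2B lie wholly above 0 and those of KDM3B wholly below it.

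The ratio of KDM2A to KDM2B within a library was also compared. The log2 ratio in 769-P cells was 2.33, 2.58 and 2.64 under siNUF2 and 2.53, 2.55 and 2.69 under siControl. The change was -0.07 in this line and -0.25 in ACHN cells, each with p = 0.6 in a two-sided exact permutation test whose smallest possible p here is 0.1. With this number of libraries the test could not have passed 0.05, so it says nothing on whether the pair changed equally. Together the pair made up 21.2%, 20.7% and 20.9% of the summed FPKM of the 10 genes in 769-P cells under siNUF2, and 14.4%, 14.03% and 12.3% under siControl. In ACHN cells the share was 18.6%, 17.6% and 20.7% under siNUF2 and 11.01%, 11.6% and 12.2% under siControl. The sum of the other 8 genes was 47.7 ± 3.33 FPKM under siNUF2 and 49.7 ± 3.00 under siControl in 769-P cells (SD, n = 3), where the groups overlapped. In ACHN cells it was 49.5 ± 3.12 against 56.4 ± 0.687, and the siNUF2 libraries were all lower.

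**Figure D3:**
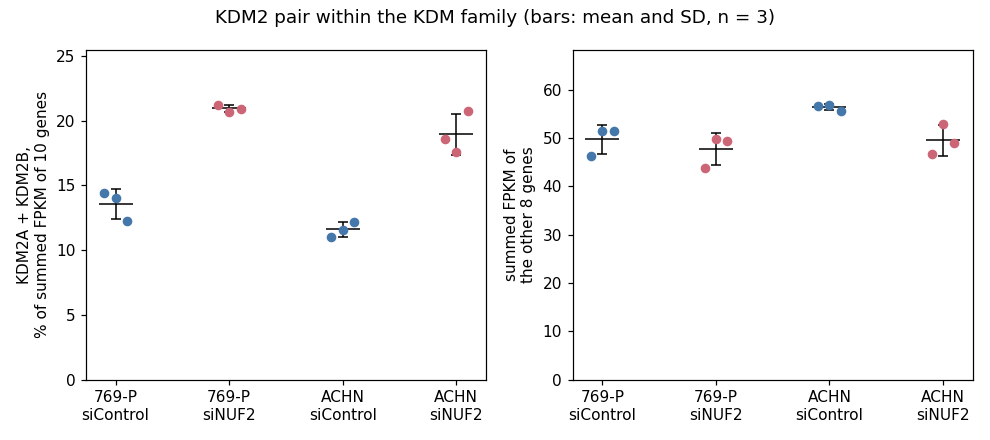
Left, KDM2A and KDM2B as a percent of the summed FPKM of the 10 demethylases, and right, the summed FPKM of the other 8, per library in each of the 4 groups (points), with bars for the mean and SD of 3 libraries. The pair took between 17.6% and 21.2% in the siNUF2 libraries and between 11.01% and 14.4% in the controls.

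The H3K9 demethylases KDM3A and KDM3B had lower means under siNUF2 in both lines. KDM3B was at 13.8, 15.5 and 14.3 FPKM under siNUF2 and at 15.8, 17.5 and 18.1 FPKM under siControl in 769-P cells. The ACHN libraries held 10.1, 11.4 and 10.7 FPKM under siNUF2 and 12.2, 12.8 and 12.8 FPKM under siControl. No siNUF2 library reached a control in either line. The log2 changes of KDM3B were -0.24 (SE 0.082) and -0.23 (SE 0.090), with adjusted p by limma of 0.119 and 0.569 (769-P first), and of 0.0312 and 0.0461 with the replicate block. KDM3A had log2 changes of -0.18 and -0.17, was lower in each of the 3 same-numbered pairs of both lines, and had adjusted p of 0.105 and 0.139 by limma with the block, which did not pass. By limma-voom with the block KDM3A was called lower in both lines, with adjusted p of 0.0356 and 0.0391. That fit called 2570 of 14158 genes lower in 769-P cells and 1754 of 15114 in ACHN cells.

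Of the KDM4 enzymes, which remove trimethyl marks from H3K9 and H3K36, none was called by limma on FPKM fitted in each line alone, with or without the block. KDM4A and KDM4C were called lower in ACHN cells by other fits with the block. The fit of all 12 libraries with the block called 1057 of 16570 genes lower in ACHN cells, and limma-voom with the block 1754 of 15114. KDM4A was at 7.35, 10.6 and 8.40 FPKM under siNUF2 and at 12.3, 12.2 and 11.2 FPKM under siControl in ACHN cells. These groups did not overlap, and siNUF2 replicate 2 came closest to the controls. The log2 change was -0.45 (95% interval -0.81 to -0.08), with an adjusted p of 0.490 by limma, of 0.0590 with the block, of 0.0299 in the fit of all 12 libraries with the block and of 0.00465 by limma-voom with the block. In 769-P cells, where KDM4A was at 8.42 to 9.57 FPKM under siNUF2 and at 9.23 to 10.1 under siControl, the groups overlapped and the log2 change was -0.10. Of the exon bases of KDM4A, 40.2% are shared with AL451062.3 on the same strand, a gene that the deposited files do not list. KDM4A-AS1 on the opposite strand shares 8.97%. The part of shared reads in the KDM4A values was not tested, so these counts are less certain. KDM4C had a log2 change of -0.10 in 769-P cells. The change was -0.28 in ACHN cells, where the groups did not overlap and the adjusted p by limma with the block was 0.0724, against 0.0245 with all 12 libraries and the block and 0.00870 by limma-voom with the block. KDM4B was at 2.67 ± 0.107 FPKM under siNUF2 against 2.61 ± 0.283 in 769-P cells and 2.60 ± 0.484 against 2.62 ± 0.637 in ACHN cells (SD, n = 3), with 95% intervals of its log2 change of -0.22 to 0.28 and -0.54 to 0.54.

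The H3K4 demethylases KDM5A and KDM5B were not called by limma on FPKM in each line alone, with or without the block. Limma-voom with the block called KDM5B lower in ACHN cells, where it called 1754 of 15114 genes lower. The log2 change of KDM5A was 0.13 (95% interval -0.08 to 0.34) for 769-P and 0.04 (-0.25 to 0.33) for ACHN. KDM5B was at 5.53 ± 0.975 FPKM under siNUF2 and 5.53 ± 0.841 under siControl in 769-P cells (SD, n = 3). In ACHN cells KDM5B was at 5.81, 6.78 and 5.72 FPKM under siNUF2 and at 7.29, 7.26 and 6.995 FPKM under siControl, without overlap, and its log2 change of -0.24 had an adjusted p of 0.639 by limma, of 0.0805 with the block and of 0.0130 by limma-voom with the block.

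KDM6B, the H3K27 demethylase of the list, was at 3.84, 5.33 and 5.33 FPKM under siNUF2 and at 3.16, 4.33 and 3.54 FPKM under siControl in 769-P cells. The groups overlapped, yet each same-numbered pair had more KDM6B under siNUF2. The log2 change was 0.38, with an adjusted p of 0.196 by limma and of 0.0285 with the block. In ACHN cells the log2 change was -0.04 (95% interval -0.56 to 0.48). The difference between the lines, -0.43, was not called, with an adjusted p of 0.111 by limma with the block.

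Counted by same-numbered pairs, 4 members were higher in all 3 pairs of 769-P cells and 4 lower, beside 30.6% and 32.3% of all genes, and 3 were higher and 5 lower in ACHN cells, beside 29.2% and 25.6%. The median log2 change of the 10 members was 0.01 for 769-P and -0.10 for ACHN, beside -0.01 and 0.01 for all genes tested. The siNUF2 and siControl libraries did not overlap for 2 members higher and 1 lower in 769-P cells, where 16.6% of all genes tested were higher and 16.5% lower without overlap. In ACHN cells they did not overlap for 2 members higher and 4 lower (KDM3B, KDM4A, KDM4C and KDM5B), where the shares of all genes were 8.86% and 5.74%. KDM2A and KDM2B were higher without overlap in both lines, as were 5.19% of the 12933 genes tested in both, and KDM3B lower, as were 3.12%. The test of the difference between the lines called 0 members and 0 of 16570 genes (0.0% in each direction), with 772 genes and 0 members at an unadjusted p under 0.05 by limma. With the block it also called 0 members, beside 0.543% of all genes higher and 0.845% lower. At an unadjusted p under 0.05, 3 members (KDM4A, KDM5B and KDM6B) passed with the block, beside 3261 of 16570 genes.

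The levels of the family were compared on FPKM scaled over all 12 libraries, which is a level per length of exon. Under siControl KDM3B stood highest in 769-P cells (17.4 ± 1.123 FPKM, SD, n = 3), followed by KDM4A (9.78) and KDM2A (6.85), and KDM2B stood lowest (1.06). KDM2A overlapped KDM5B (5.61), the next in order, whereas KDM2B was apart from KDM4B (2.65) above it. In ACHN controls KDM3B (12.45), KDM4A (11.7) and KDM5A (10.1) overlapped their neighbours at the top, KDM2A (5.04) ranked 5 and overlapped KDM3A (4.70), and KDM2B (2.26) was again lowest but overlapped KDM4C (2.32). Under siNUF2, KDM2A ranked 2 in 769-P cells (10.98), apart from KDM4A (9.16), and 4 in ACHN cells (7.33), where it was apart from KDM5B (5.99).

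Between the lines under siControl, 4 of the 10 genes were called higher in ACHN than in 769-P cells and 2 lower, beside 29.6% and 31.9% of 15377 genes by limma, so the family did not stand apart from the background by these counts. The fit of all 12 libraries called 3 higher and 2 lower, beside 30.8% and 32.7%. KDM2B differed most, with a log2 difference of 1.03 (95% interval 0.60 to 1.47, adjusted p 0.00264 by limma), followed by KDM5A (0.89), KDM3A (0.58) and KDM4A (0.27). KDM3B (-0.46) and KDM2A (-0.42, adjusted p 0.00997 by limma) were lower in ACHN cells, so KDM2A and KDM2B differed between the lines in opposite directions. KDM5B, at 0.36, just missed the threshold (adjusted p 0.0506 by limma). It was called higher under median-ratio scaling (0.0394), on FPKM as deposited (0.0373), with a pseudocount of 1 (0.0497), with a filter of at least 1 FPKM (0.0489), by limma-voom (0.0239) and without 769-P siControl replicate 3 (0.0158). The call of KDM4A was lost when any 1 of the 6 libraries was left out, with adjusted p by limma from 0.0513 to 0.115, and under upper-quartile scaling, which moved the median of all genes to -0.17 from -0.03 and gave KDM4A 0.14. Each line stands for itself only, and culture media differed between them.

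**Figure D4:**
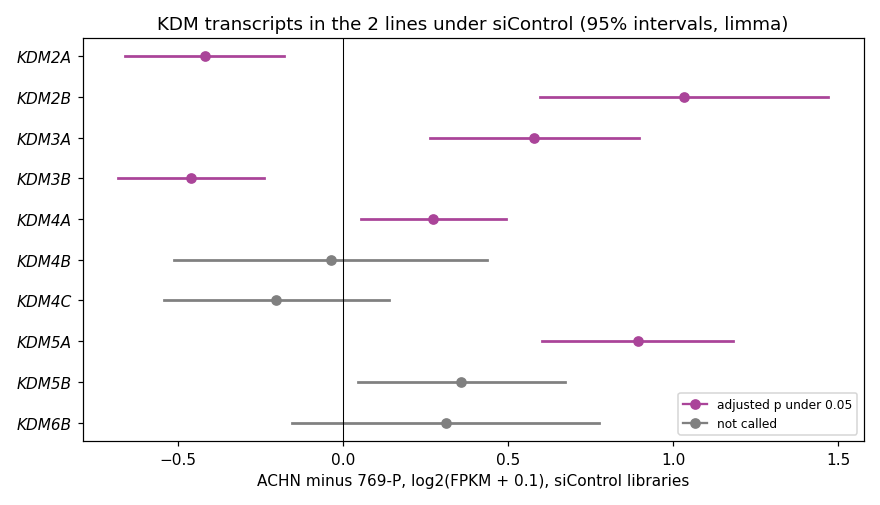
Log2 difference of ACHN minus 769-P cells under siControl on log2(FPKM + 0.1) (x axis) for each demethylase, with 95% intervals from limma (n = 3 libraries per line), in purple where the adjusted p was under 0.05. KDM2B lies at 1.03 and KDM2A at -0.42, on opposite sides of 0.

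None of the remaining histone demethylases tested was called higher by limma on FPKM in each line alone, with or without the block. Of 13 further enzymes (among them KDM1A, KDM1B, KDM5C, KDM6A and PHF8), 10 were expressed enough to test in the 769-P line and 11 in the ACHN line, and 0 were called in either by limma. With the block, 1 fell in 769-P cells and 0 were called in ACHN cells. That gene, named here after its values were seen, was KDM1B, which demethylates H3K4 by a flavin-dependent reaction, with a log2 change of -0.39 and an adjusted p of 0.0151 by limma with the block. The median log2 change of these enzymes was -0.06 for 769-P and -0.11 for ACHN cells, beside -0.01 and 0.01 for all genes tested.

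The enzymes that write the marks were counted next. With the block, 13.6% of all genes were called higher and 14.0% lower in 769-P cells, and 7.14% and 5.05% in the ACHN line. Counts of 0 to 2 in lists this short are too small to be told apart from those shares, and no test of the lists was run. Of 7 H3K36 methyltransferases, 0 were called in either line, and with the block 2 fell in 769-P and 1 rose in ACHN cells. Of 6 H3K4 methyltransferases, 0 were called, and with the block 1 rose in each line, which was SETD1A (0.32 and 0.25, adjusted p 0.0310 and 0.0376 by limma with the block), the catalytic subunit of a COMPASS complex. Of 6 H3K9 methyltransferases, 0 were called, with 1 lower in 769-P and 1 higher in ACHN cells under the block, and of 4 genes for H3K27 methyltransferases and the PRC2 core 0 were called with or without it.

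Partners of the demethylases were tested as well, against the same shares of all genes. Of 9 genes for PRC1.1, the complex that KDM2B joins, 0 were called in either line. With the block 1 rose and 2 fell in 769-P cells and 1 fell in ACHN cells. Of 8 genes for the SIN3 deacetylase complex, with which KDM5A associates, 1 rose and 1 fell in 769-P cells and 0 were called in ACHN cells. The one that rose was HDAC1, a histone deacetylase, at 83.0, 83.2 and 88.7 FPKM under siNUF2 and 58.0, 57.2 and 54.6 FPKM under siControl. Its log2 change was 0.59 for 769-P (adjusted p 0.00517 by limma) and 0.51 for ACHN cells (adjusted p 0.317, and 0.0166 with the block). PHF12, a subunit of a SIN3 complex, had log2 changes of 0.28 and 0.26 and adjusted p of 0.0285 and 0.0440 by limma with the block.

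HMGA2, the chromatin architectural factor whose promoter the study examined for KDM2A, was at 8.003, 6.09 and 5.38 FPKM under siNUF2 and at 28.8, 29.01 and 37.0 FPKM under siControl in 769-P cells, without overlap. The ACHN libraries held 16.02, 5.39 and 9.36 FPKM against 51.2, 18.2 and 34.6 FPKM, and all siNUF2 libraries were below all controls. The log2 changes were -2.28 (adjusted p 0.00268 by limma) and -1.76 (adjusted p 0.434, and 0.00801 with the block).

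Genes of other programmes moved in the same libraries, and their part in the change of the KDM genes was not tested. The counts are to be read beside 5.29% of all genes called higher and 4.74% lower in 769-P cells, and with the block beside 13.6% and 14.0% there and 7.14% and 5.05% in the ACHN line. Of 16 cycling genes, 1 rose in 769-P and 0 were called in ACHN cells, and with the block 4 rose and 2 fell in 769-P and 6 rose in ACHN cells. CENPF, TPX2 and BUB1, which act in mitosis, were higher with the block in both lines, with log2 changes of 0.36, 0.22 and 0.20 for 769-P and of 0.44, 0.28 and 0.47 for ACHN. Of the NF-kB target genes, 3 of 11 tested fell in 769-P and 0 of 14 were called in ACHN cells (7 fell, and 1 rose and 2 fell, with the block). BIRC3, an inhibitor of apoptosis, had log2 changes of -1.63 and -0.73 and was called lower in both lines with the block. In ACHN cells its replicate 2 was lowest under both siRNAs (2.81 FPKM under siNUF2 and 6.29 under siControl). Each same-numbered ACHN pair was lower, with log2 differences of -0.61, -1.13 and -0.46. The ACHN value was 0.24 without siNUF2 replicate 2, in a fit that kept siControl replicate 2. Of the HIF target genes, 0 of 8 were called in 769-P cells, as were 0 of 9 in the ACHN line (1 rose and 3 fell, and 1 rose, with the block). Of the renal markers 1 of 8 fell in 769-P and 0 of 7 were called in ACHN cells. With the block 4 rose and 3 fell in 769-P and 2 rose in ACHN cells, and the 2 were the keratins KRT8 (0.62) and KRT18 (0.60), whose ACHN levels under siControl ran from 56.8 to 160.4 and from 35.5 to 79.8 FPKM.

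The genes whose pattern was most like that of KDM2A over the 12 libraries, with the mean of each line taken out, were ZCCHC3, PCNX3, GANAB, ZNF629 and MRFAP1, with Pearson r from 0.976 to 0.985 among 12932 genes. GANAB, the catalytic subunit of glucosidase II, had log2 changes of 1.85 and 1.58, larger than those of KDM2A. KDM2B had an r of 0.861 and ranked 382, ahead of the other members. KDM6B (0.472) and KDM5A (0.440) came next, and KDM3B had an r of -0.822. These correlations share the contrast of siNUF2 with siControl and serve as a description.

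KDM2B shares 439 exon bases, 3.22% of its exons, with RNF34 on the opposite strand, and whether the counting used strand is not given in the sources used here. The RNF34 log2 change was -0.18 for 769-P and -0.07 for ACHN cells, with adjusted p of 0.288 and 0.976 by limma. RNF34 was lower in each of the 3 same-numbered pairs of 769-P cells, and its adjusted p there was 0.0682 with the block and 0.0476 by limma-voom with the block. The part of shared reads in the KDM2B values was not tested.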

How the data were processed

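The authors filtered the reads with fastp, and per the submitters' processing notes HISAT2 2.0.5, featureCounts 1.5.0-p3 and hg38 were used. The annotation and the strand setting are not given in the sources used here. The deposited values are FPKM per gene and library. Whole reads (within 0.02) were recovered from them for 98.8% of the 36305 genes above 0, and served for the depth and for limma-voom.

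FPKM were scaled by a trimmed mean of log ratios. Log2(FPKM + 0.1) was fitted with limma 3.58.1 (R 4.3.3; lmFit, eBayes with trend, two-sided) for genes with at least 0.5 FPKM in at least 3 libraries, each line alone, and genes with a Benjamini-Hochberg adjusted p under 0.05 were called. After group means were taken out, siNUF2 and siControl libraries that carry the same replicate number correlated with r of 0.19 to 0.355 (769-P) and 0.46 to 0.735 (ACHN), each over 0.1, so the replicate number was fitted as a block beside the planned fit. What a number stands for is not given. No library was a copy of another. Windows before RefSeq starts came from GRCh38.p14. Alternatives covered scaling, pseudocount, filter, threshold, samples and each library left out.

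The members and gene lists were chosen with earlier results of these data known. From each further list, genes called in both lines with or without the block were named (up to 3, by p in 769-P), with NUF2 and HMGA2, and the 5 genes most like KDM2A. A marker gene counted in its list is not reported here by name. The scripts were tested on simulated data. Figures were drawn with matplotlib 3.10.9.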

Additional observations from a re-analysis of the deposited data

How the results depend on the processing

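The number of members called in 769-P cells was 2, and it was 1 with no filter on low values, 1 at an adjusted p under 0.01, 1 in a fit of all 12 libraries, 4 with the replicate block, 4 with both, 5 with limma-voom and the block, and 1 to 2 when a library was left out. KDM2A was among the members called in each of these fits. In ACHN cells the number was 0, and it was 3 with the replicate block, 1 in the fit of all 12 libraries, 5 with both (KDM4A and KDM4C added) and 7 with limma-voom and the block (KDM3A, KDM4A, KDM4C and KDM5B added), and 0 whichever library was left out. The limma-voom fits, and the fit that joins all 12 libraries with the block, were chosen after seeing the data. Over all genes, 1420 of 14160 were called in 769-P cells (749 higher, 671 lower), and 3897 with the block (1919 and 1978). The number was 649 of 31645 with no filter (362 and 287), 175 at an adjusted p under 0.01 (101 and 74) and 718 of 16570 with all 12 libraries (441 and 277). It was 4575 of 16570 with all 12 libraries and the block, 5205 of 14158 with limma-voom and the block, and 365 to 1144 when a library was left out. In ACHN cells, where 0 genes were called, 1843 of 15116 were called with the block and 165 of 16570 with all 12 libraries. With both the number was 2474 of 16570, and with limma-voom and the block it was 3494 of 15114. The test of the difference between the lines called 230 with the block against 0. Between the lines under siControl, upper-quartile scaling called 3911 genes higher and 5738 lower, against 4546 and 4900. The change of the KDM2A to KDM2B log2 ratio in 769-P cells turned from -0.07 to 0.15 with a pseudocount of 1, and ranged from -0.14 to 0.018 when a library was left out. Changes near 0 turned sign, as did that of BIRC3 in ACHN cells. KDM5B in 769-P cells was 0.0021 with limma-voom and the block, KDM4B in ACHN cells 0.0083 under upper-quartile scaling, and the difference between the lines was -0.011 for KDM2B with limma-voom and -0.00960 and -0.0051 for KDM3A with a pseudocount of 1 and with limma-voom. With a library left out, the log2 change ranged from -0.012 to 0.12 for KDM4B in 769-P, from -0.13 to 0.13 for KDM5B in 769-P, from -0.17 to 0.16 for KDM4B in ACHN, from -0.031 to 0.11 for KDM5A in ACHN, from -0.21 to 0.14 for KDM6B in ACHN, from -1.51 to 0.24 for BIRC3 in ACHN, from -0.18 to 0.18 for KDM2B in the difference of changes between the lines, from -0.082 to 0.078 for KDM3A in the difference of changes between the lines, from -0.053 to 0.061 for KDM3B in the difference of changes between the lines, from -0.22 to 0.13 for KDM4B in the difference of changes between the lines, from -0.22 to 0.12 for KDM4B between the lines under siControl. The cause of these changes was not tested. KDM2B had the fewest reads of the members, as few as 397 in a library, and the part of counting error was not tested.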
